A study of Mus musculus with 2 samples.

Results

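Interferon-stimulated genes (ISGs) are the genes that cells switch on after an interferon binds its receptor. Type I interferons signal through the kinases Jak1 and Tyk2 to a transcription factor complex that holds Stat2 and Irf9 and binds the interferon-stimulated response element (ISRE) in ISG promoters. Type II interferon acts through Jak1 and Jak2 on the gamma-activated site (GAS). The products sense viral RNA or DNA, block viral entry and replication, or attack the vacuoles of intracellular microbes, and in myeloid cells many are made at a basal level without infection. A list of 50 interferon-induced sensors and effectors was looked up by gene name in the deposited table. All 50 names were found, on 51 of its 34745 gene entries, because Gbp6 had 2 entries (ENSMUSG00000079362 and ENSMUSG00000104713).

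The table held RNA sequencing of monocytic myeloid-derived suppressor cells (M-MDSCs), immature myeloid cells that restrain T cells. Marrow of C57BL/6 mice aged 6 to 8 weeks was grown in GM-CSF, a myeloid growth factor, at 50 ng/ml, and after 7 days CD11b+Ly6G-Ly6Chigh cells were sorted. The CHBP- M-MDSC received GM-CSF alone, and the CHBP+ M-MDSC also received CHBP (cyclic helix B peptide), a peptide derived from erythropoietin that does not stimulate red cell formation, at a dose that the methods give as 20 μM, although the study also describes doses in nM and the labels give none. There was 1 library per condition, so no difference has a replicate check and none was tested. The labels give the strain of the CHBP+ library as C57BL/7 and do not say how many mice were pooled. Peptide, library and any difference of strain cannot be told apart.

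The libraries held 16484504 (CHBP-) and 16280466 (CHBP+) reads on genes. A level is given as FPKM, the reads of a gene scaled to its length and to the reads on all genes. The main difference was log2((FPKM in CHBP+ + 1)/(FPKM in CHBP- + 1)), called the log2 ratio below, which understates the change of low genes. It was read for the entries with at least 1 FPKM in at least 1 library, and 1.5-fold was taken as the threshold of size. A 95% counting interval (Clopper-Pearson, on the log2 ratio of CPM, reads scaled to the library total alone) covers counting error only, since reads are not independent molecules. The sorting markers were present. Itgam (CD11b) was at 157 and 232 FPKM on the larger of its 2 entries, and Ly6c2 was at 56.9 and 34.0 FPKM. The first value is CHBP- and the second CHBP+ here and throughout. Their log2 ratios were 0.56 and -0.73, and that of the second Itgam entry was 0.61. Ly6c2 and the second Itgam entry were thus past 1.5-fold, in opposite directions. Of the 7 entries of 6 monocyte and sorting genes, 4 were higher and 3 lower. Ly6g was at 2.19 and 2.12 FPKM. Of 8 neutrophil genes 7 were lower in CHBP+ M-MDSC, and their summed level was 2012 and 1452 FPKM, led by S100a9 and S100a8. These genes are short, and with the trend with gene length described below removed 4 were higher and 4 lower, while 5882 of all 10948 genes kept were lower as measured. Among markers of plasmacytoid dendritic cells, which are strong interferon producers, Siglech was at 0.496 and 0.442 FPKM and 5 of 6 were under 1 FPKM in both libraries, while Cox6a2 was at 23.2 and 17.5 FPKM. The 6 dendritic cell genes summed to 232 and 240 FPKM. Of the 4 with at least 1 FPKM, Itgax was higher (107 and 142 FPKM) and 3 were lower, among them Flt3 with an interval that included 0. Over all 6, 3 were higher and 3 lower. Zbtb46, under 1 FPKM in both libraries, had 49 and 93 reads, with an interval of 0.43 to 1.47. The 6 T, B and NK cell genes summed to 23.9 and 15.8 FPKM, with Ncr1 at 0 reads in both libraries and Cd79a at 18.5 and 10.5 FPKM. The part of other cell types in the results below was not tested. In bulk RNA, fewer cells of a type and less RNA per cell cannot be told apart.

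The promoters of several members carry the ISRE, and a few are printed to show the element the list is named for. RefSeq promoter windows, 250 bases before to 50 after a start site on GRCm38.p6, were available for 38 of the 50 genes (43 windows). The ISRE core, searched on both strands as GAAA, any 2 bases and GAAA, was in 23 of the 43 windows (53.5%), against 3.44% of all 32851 windows. The GAS core, TTC, any 3 bases and GAA, was in 32.6% of the members' windows and 8.3% of all windows, and it may overlap the ISRE core. The stretches below lie before the start site and run 5′ to 3′ on the gene's strand, with capitals marking ISRE cores (TTTC where the core lies on the opposite strand). Isg15 and Ifit1 carry several cores each, and both had fewer reads in CHBP+ M-MDSC. Ifitm2 is from the family with the highest levels, and is the only gene of that family with a core wholly before the start site. Gbp7 stands for a member with a higher level in CHBP+ M-MDSC. Oas1a with Oas1g, and Igtp with Irgm2 and Tgtp1, show how alike the promoters of related members are.
Isg15 (chr4:156200855-156200904, minus strand): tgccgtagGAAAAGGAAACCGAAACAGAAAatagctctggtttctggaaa
Ifit1 (chr19:34640784-34640833, plus strand): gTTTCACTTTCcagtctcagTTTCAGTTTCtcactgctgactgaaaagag
Ifitm2 (chr7:140955978-140956027, minus strand): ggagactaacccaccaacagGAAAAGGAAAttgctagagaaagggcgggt
Gbp7 (chr3:142530263-142530312, plus strand): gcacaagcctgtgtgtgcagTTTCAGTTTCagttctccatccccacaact
Oas1a (chr5:120907526-120907559, minus strand): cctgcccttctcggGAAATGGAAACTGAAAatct
Oas1g (chr5:120887614-120887645, minus strand): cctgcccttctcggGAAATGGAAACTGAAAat
Igtp (chr11:58199502-58199551, plus strand): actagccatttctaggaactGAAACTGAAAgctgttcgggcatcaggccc
Irgm2 (chr11:58214893-58214942, plus strand): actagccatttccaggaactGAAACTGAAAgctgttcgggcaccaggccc
Tgtp1 (chr11:48992294-48992343, minus strand): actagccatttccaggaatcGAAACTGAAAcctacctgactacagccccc

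The nearest core began 66 bases before the start in Isg15, 85 in Ifit1, 46 in Ifitm2, 53 in Gbp7, 14 in Oas1a, 12 in Oas1g, 34 in Igtp, 64 in Irgm2 and 77 in Tgtp1. The printed bases of Oas1a and Oas1g were identical over the 32 they share. Igtp and Irgm2 were identical at 48 of 50 bases, while Tgtp1 matched Igtp at 34 and Irgm2 at 36 of 50. The RefSeq start of Irgm2 lies inside the span that the table lists for it. The windows of Ifitm1, Ifitm6, Rnf213, Trim25 and Samhd1 held no ISRE core, which says only that these letters were not in those 300 bases. The 22 genes with a core had a median level of 4.88 and 4.20 FPKM, and the 16 without had 3.45 and 3.57 FPKM. Of those past the level filter, 9 of 19 with a core and 8 of 14 without were higher in CHBP+ M-MDSC.

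All 51 entries had at least 1 read, and 40 passed the level filter. The members kept nearly the same order of level in both libraries (Spearman's rho 0.984 across the 51 entries, which share the libraries and their gene lengths). The 4 genes of the IFITM family were over 100 FPKM in both. At 10 to 100 FPKM there were 8 entries in CHBP- and 7 in CHBP+ M-MDSC, while 26 and 27 were at 1 to 10 FPKM and 13 in each library were under 1 FPKM. Sensors, OAS and GBP genes were thus at low to moderate levels, while the membrane proteins of the IFITM family were abundant.

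**Figure D1:**
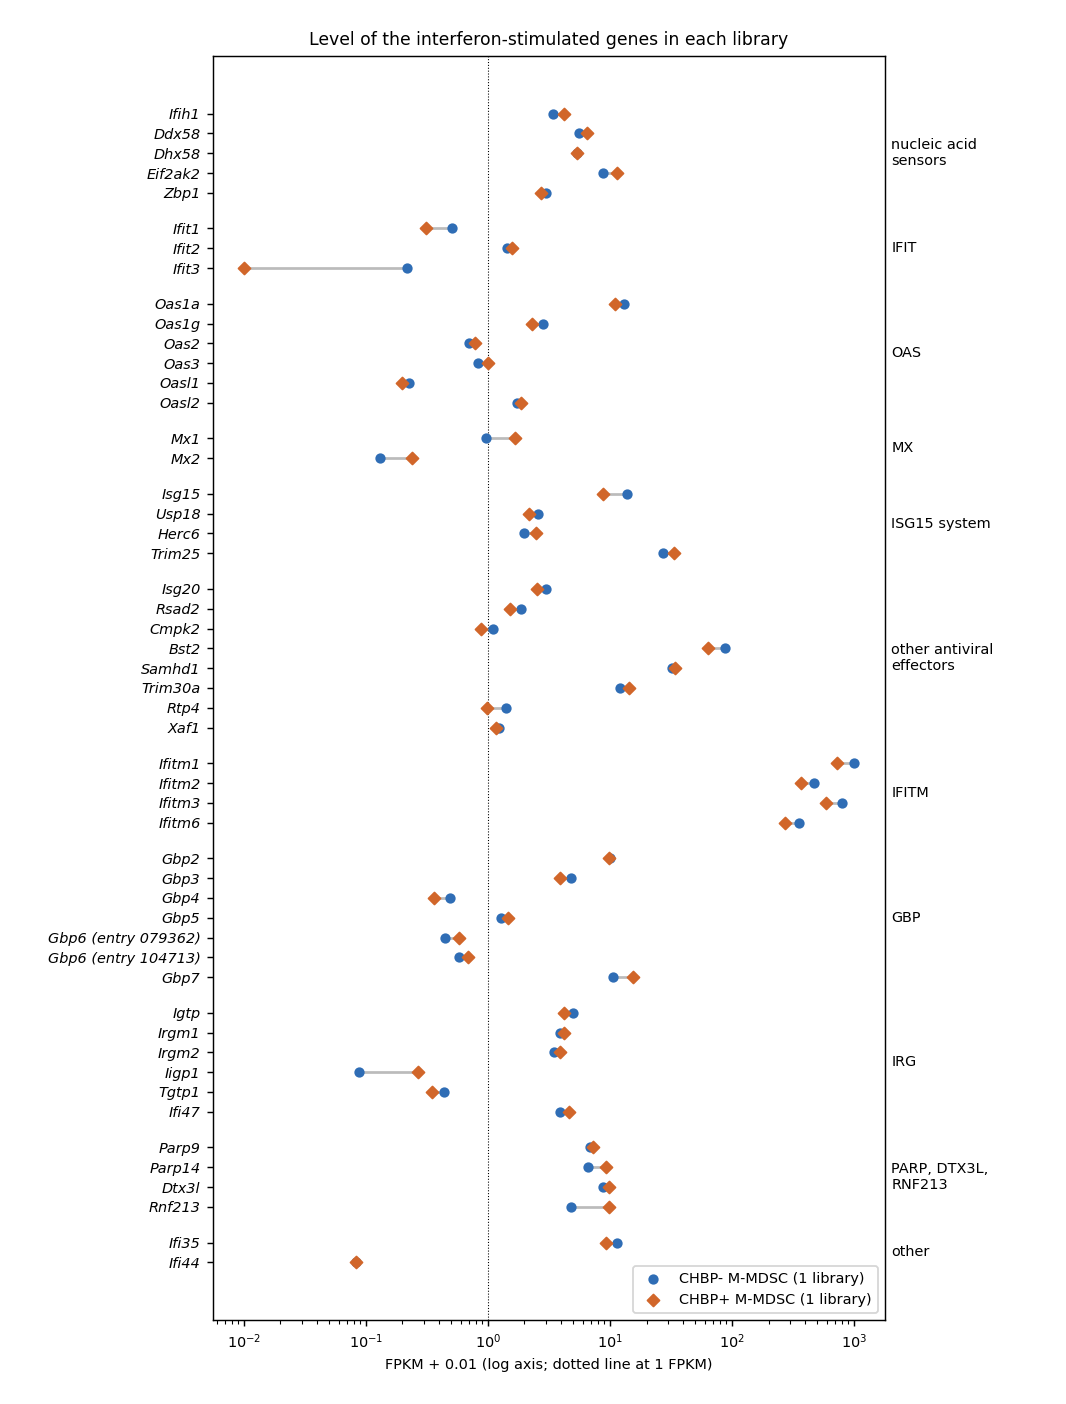
Level of each of the 51 entries in CHBP- M-MDSC (blue circles, 1 library) and CHBP+ M-MDSC (orange diamonds, 1 library), by family, as FPKM + 0.01 on a log axis with a dotted line at 1 FPKM. The IFITM genes sit farthest to the right at 271 to 1008 FPKM, and Ifit3, with 6 and 0 reads, has the widest gap among genes with almost no reads.

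Of the 40 members past the filter, 21 were higher and 19 lower in CHBP+ M-MDSC, with a median log2 ratio of 0.04 beside -0.03 over all 10948 genes kept. Only Rnf213 was at least 1.5-fold higher, where 3.42% of all kept genes were (374 of 10948). Only Isg15 was at least 1.5-fold lower, where 2.89% of all were (316 of 10948), and its log2 ratio of -0.59 was just past the threshold. These shares of members, 1 of 40 in each direction, were near the background. The members nearest to the threshold without reaching it were Gbp7 (0.51), Mx1 (0.45) and Parp14 (0.45) on the higher side, and Ifitm1 (-0.47), Bst2 (-0.44) and Ifitm3 (-0.42) on the lower side. Mx1 and Oas3 reached 1 FPKM only in CHBP+ M-MDSC, and Cmpk2 and Rtp4 only in CHBP- M-MDSC. Each of these passed the filter only through the library where it was higher, so their place in the split is partly set by the filter. Among the 50 entries with at least 10 reads, the counting interval lay wholly above 0 in 14, beside 24.1% of 14162 genes, and wholly below 0 in 10, beside 25.1%. The list thus had members on both sides of 0, and it is described below by family.

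The log2 ratio also moved with gene length across the whole table. The gene length implied by count and FPKM had a Spearman's rho of 0.78 with the log2 ratio across the 40 members, and of 0.48 across all 10948 genes. These genes share the 2 libraries, so the values are a description. Of the 20 shorter members (up to 5121 bases) 17 were lower in CHBP+ M-MDSC, with a median of -0.20, and of the 20 longer members (from 5225 bases) 18 were higher, with a median of 0.17. After the trend with length over all genes was removed, these medians were -0.11 and 0.07, the members' median was -0.04 beside -0.02 for all genes, and 19 were higher and 21 lower. With the length of the longest annotated transcript in place of the implied length, rho was 0.85 across 39 members and 0.69 across 10211 genes. The part of length in each result was not tested. Values with either trend removed, called the implied and the transcript length trend, are given beside the main results below. These values are not free of length. With the implied length trend removed, rho with that length was still 0.57 across the 40 members. With the transcript length trend removed, rho with transcript length was still 0.42 across 39 members.

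**Figure D2:**
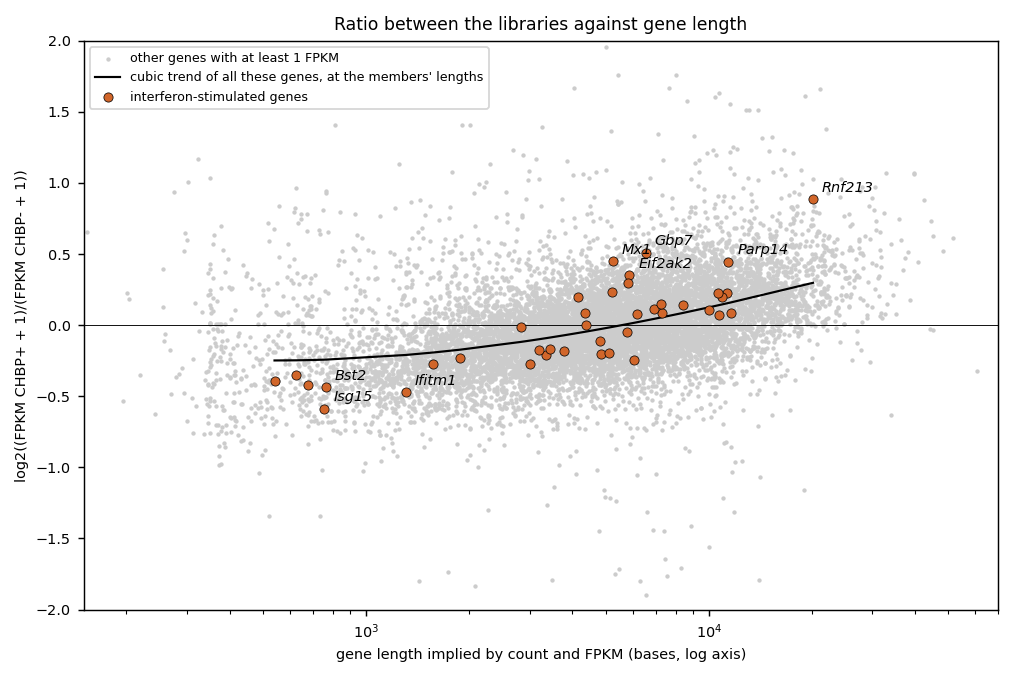
Log2 ratio of FPKM + 1, CHBP+ over CHBP- M-MDSC, against gene length in bases on a log axis for the 40 members (orange) and the other genes with at least 1 FPKM (grey), with the cubic trend of all these genes as a black line. Short members such as Isg15 and Bst2 lie below 0 and long members such as Rnf213 and Parp14 above it, and 13 genes beyond the limits of the vertical axis are not drawn.

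The IFITM proteins, small membrane proteins that stop enveloped viruses from fusing with the cell, made up most of the members' RNA per length. Ifitm1 was at 1008 FPKM in CHBP- and 727 FPKM in CHBP+ M-MDSC, the 37th and 44th highest level in the table. Ifitm3, the broad entry inhibitor, was at 800 and 596 FPKM. Ifitm2 was at 470 and 369 FPKM and Ifitm6, a member found in rodents, at 357 and 271 FPKM. All 4 were lower in CHBP+ M-MDSC and their intervals lay wholly below 0. Their log2 ratios ran from -0.47 (Ifitm1, 95% counting interval -0.50 to -0.44) to -0.35 (Ifitm2, -0.41 to -0.29). The family's summed level was 2636 and 1963 FPKM, which was 89.2% and 86.2% of the summed level of all members. This share depends on the scaling to length. In reads, the family held 38674 of the members' 64469 in CHBP- and 28182 of 57785 in CHBP+ M-MDSC. The summed level of all members was 0.771 times as high in CHBP+ as in CHBP- M-MDSC, and without the IFITM family it was 318 and 314 FPKM, or 0.987 times. These are among the shortest members, at 541 to 1305 bases. With the implied length trend removed their log2 ratios were -0.26 (Ifitm1), -0.18 (Ifitm3), -0.15 (Ifitm6) and -0.10 (Ifitm2). With the transcript length trend removed they were -0.15, -0.08, -0.04 and 0.00 in the same order.

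The ISG15 system attaches the ubiquitin-like protein Isg15 to other proteins. Isg15 itself was at 13.8 FPKM (172 reads) in CHBP- and 8.86 FPKM (109 reads) in CHBP+ M-MDSC. Its log2 ratio was -0.59 (95% counting interval, carried to FPKM + 1, -0.91 to -0.26). That was the lowest log2 ratio of the list, and with 756 bases also a short gene, with -0.34 and -0.25 once the implied or the transcript length trend was removed. Usp18, which removes Isg15 and damps type I interferon signalling, was at 2.55 and 2.16 FPKM, and its interval included 0. Herc6, the main mouse ligase for Isg15, was at 1.97 and 2.47 FPKM, and Trim25, a ligase that also activates the RNA sensor Ddx58 (RIG-I), at 27.3 and 33.7 FPKM. The intervals of the last 2 lay above 0, so the modifier and the ligases differed in sign. The log2 ratio of Trim25 was 0.29 as measured, 0.29 with the implied and 0.07 with the transcript length trend removed, and that of Herc6 was 0.23, 0.09 and 0.02. The Herc6 entry overlaps a second annotated gene.

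The giant ubiquitin ligase Rnf213, which targets bacteria and lipid droplets, had the highest log2 ratio of the list. It was at 4.82 FPKM (1601 reads) and 9.76 FPKM (3202 reads), a CPM log2 ratio of 1.02 (95% counting interval 0.93 to 1.11). At 20151 bases it was also the longest member. Its log2 ratio of 0.89 was 0.59 with the implied length trend removed and 0.19 with the transcript length trend removed. Parp14, an ADP-ribosyltransferase, was at 6.58 and 9.33 FPKM, with a log2 ratio of 0.45 that was 0.29 and 0.10 after the same removals. Parp9 (6.88 and 7.34 FPKM) and its partner Dtx3l (8.72 and 9.80 FPKM), which together modify histones and viral proteins, overlap each other on chromosome 16. Their reads together were 1742 and 1893, a CPM log2 ratio of 0.14 (0.04 to 0.23). The interval of Parp9 alone (-0.06 to 0.24) included 0, and that of Dtx3l alone was 0.05 to 0.29. With the implied length trend removed the log2 ratio of Dtx3l was 0.10 and that of Parp9 0.06, and with the transcript length trend removed they were -0.05 and 0.02.

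**Figure D3:**
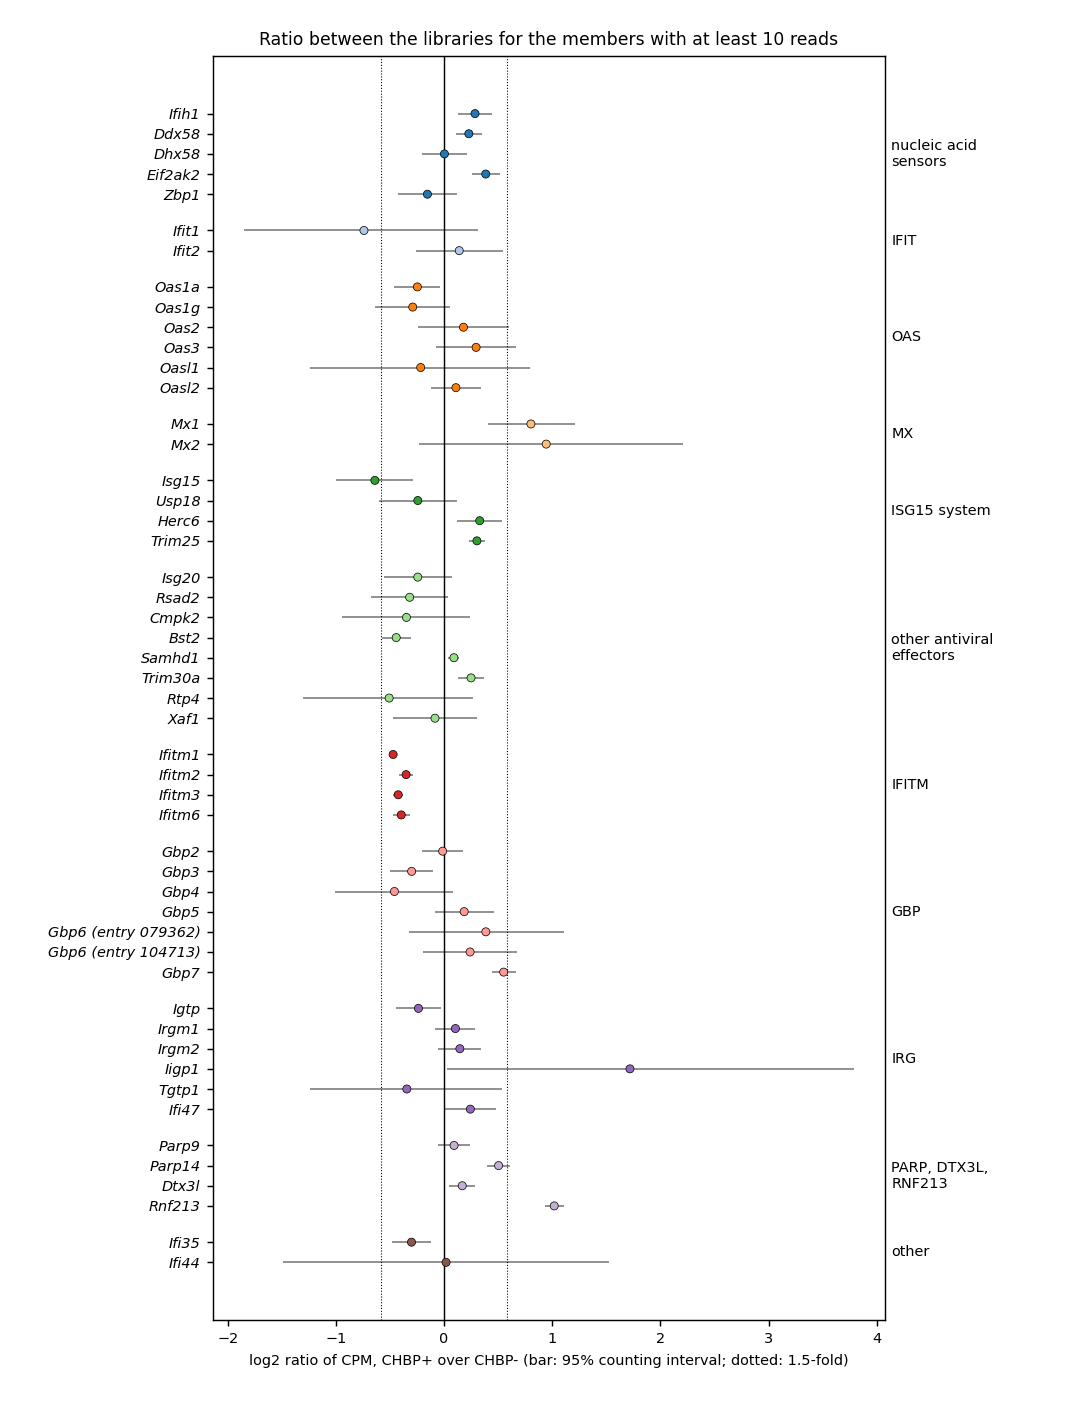
Log2 ratio of CPM, CHBP+ over CHBP- M-MDSC, for the 50 entries with at least 10 reads, by family, with bars for the 95% counting interval and dotted lines at 1.5-fold. The 4 IFITM genes lie below 0. The points of the PARP, DTX3L and RNF213 genes lie above 0, with the bar of Parp9 crossing it. Iigp1, Ifi44, Mx2, Ifit1 and Oasl1 have bars that span more than 2 units.

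The cytosolic sensors of nucleic acids were, with Zbp1 as the exception, level or higher in CHBP+ M-MDSC. Eif2ak2 (PKR), a kinase that halts translation on double-stranded RNA, was at 8.75 and 11.4 FPKM (846 and 1091 reads), with a log2 ratio of 0.35 that was 0.34 with the implied and 0.23 with the transcript length trend removed. Its entry overlaps a second annotated gene. Ifih1 (MDA5), the sensor of long double-stranded RNA, was at 3.42 and 4.17 FPKM, and Ddx58, the sensor of 5′-triphosphate RNA, at 5.58 and 6.54 FPKM. The intervals of these 3 lay above 0. The log2 ratio of Ifih1 was 0.23 as measured, 0.07 with the implied and 0.01 with the transcript length trend removed, and that of Ddx58 was 0.20, 0.05 and 0.12. Dhx58 (LGP2), a regulator of both, was at 5.37 and 5.38 FPKM, and Zbp1, a sensor of Z-form nucleic acids, at 3.01 and 2.71 FPKM with an interval that included 0.

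The OAS enzymes make the messenger that activates RNase L. Oas1a was the most abundant, at 13.0 and 11.0 FPKM, and Oas1g was at 2.82 and 2.31 FPKM. These 2 share 41.7% and 39.4% of their 75-base words, so single reads cannot always be given to either. Their reads together were 561 and 463, a CPM log2 ratio of -0.26 (-0.44 to -0.08). With the implied length trend removed, the log2 ratio of Oas1a was -0.06 and that of Oas1g -0.12, and with the transcript length trend removed both were -0.07. Oas2 (0.688 and 0.778 FPKM), Oas3 (0.817 and 1.00 FPKM), Oasl1 (0.217 and 0.187 FPKM) and Oasl2 (1.73 and 1.87 FPKM) were lower in level, and the interval of each included 0.

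The IFIT proteins, which bind foreign RNA ends and are among the most inducible ISGs, were scarce. Ifit1 had 22 and 13 reads (0.502 and 0.301 FPKM), and its promoter stretch above carries ISRE cores. Ifit2 had 102 and 111 reads (1.42 and 1.56 FPKM). Ifit3 had 6 reads in CHBP- and 0 in CHBP+ M-MDSC. That is under the 10 reads asked for an interval, so no fold is given for Ifit3. Of its 75-base words 41.1% occur in another gene. The MX GTPases, which trap viral nucleocapsids, were similarly low. Mx1 was at 0.957 and 1.67 FPKM (83 and 143 reads), a CPM log2 ratio of 0.80 (0.40 to 1.21), and its log2 ratio of 0.45 was 0.46 and 0.42 with the 2 length trends removed. Mx2 had 10 and 19 reads with an interval that included 0. Ifi44 had 9 reads in each library. The intervals of Ifit1, Ifit2, Mx2 and Ifi44 included 0, so no difference was detectable for them at this depth.

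The other antiviral effectors were led by Bst2 (tetherin), which holds budding virions on the cell surface, at 87.4 and 64.3 FPKM (1101 and 800 reads). Its log2 ratio was -0.44 at 764 bases, and -0.19 and -0.10 with the implied and the transcript length trend removed. Samhd1, which depletes the nucleotides that reverse transcription needs, was at 32.3 and 34.4 FPKM, with a log2 ratio of 0.09 that was -0.07 and 0.00 with the same trends removed. Trim30a, a regulator of inflammatory signalling, was at 12.1 and 14.4 FPKM, with a log2 ratio of 0.23 that was 0.24 and 0.13 after these removals. The exonuclease Isg20 (3.00 and 2.53 FPKM), the viperin gene Rsad2 (149 and 118 reads), its neighbour Cmpk2 (1.10 and 0.864 FPKM), the chaperone Rtp4 (1.39 and 0.976 FPKM) and the pro-apoptotic Xaf1 (1.23 and 1.16 FPKM) were nominally lower, and the interval of each included 0. Ifi35 was at 11.5 and 9.31 FPKM, with an interval below 0 and a log2 ratio of -0.27 that was -0.17 with the implied and -0.03 with the transcript length trend removed.

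The guanylate-binding proteins (GBPs) and the immunity-related GTPases (IRGs) coat vacuoles that hold bacteria or parasites and are strongly induced by type II interferon. Gbp7 was the GBP that differed most, at 10.6 FPKM (1144 reads) and 15.5 FPKM (1655 reads). Its log2 ratio was 0.51, and 0.48 and 0.29 with the 2 length trends removed. Its neighbour Gbp3 on chromosome 3 differed the other way, at 4.80 and 3.90 FPKM, with a log2 ratio of -0.24 that was -0.26 and -0.19 with the same trends removed. Gbp2 (9.97 and 9.88 FPKM) was level, and Gbp5 (1.28 and 1.46 FPKM), Gbp4 (0.484 and 0.352 FPKM) and the Gbp6 entries (0.436 and 0.570, and 0.574 and 0.678 FPKM) had intervals that included 0. The 2 Gbp6 entries and Gbp4 overlap other GBP entries, and 71.4% of the words of the first Gbp6 entry occur in other genes. The 2 Gbp6 entries together had 115 and 138 reads.

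Among the IRGs, Igtp (Irgm3) was at 4.96 and 4.21 FPKM and Irgm2 at 3.50 and 3.87 FPKM, but their annotated spans overlap. The interval of Igtp alone was -0.45 to -0.03, and that of Irgm2 alone (-0.05 to 0.34) included 0. The log2 ratio of Igtp was -0.19 as measured, -0.18 with the implied and -0.06 with the transcript length trend removed. Their reads together were 819 and 788, a CPM log2 ratio of -0.04 (-0.18 to 0.11), so no difference was detectable for the pair as a sum. Irgm1, a regulator of autophagy, was at 3.90 and 4.19 FPKM. Ifi47 was at 3.89 and 4.61 FPKM, with an interval that began just above 0 and an entry that overlaps Olfr56. Its log2 ratio of 0.20 was 0.25 and 0.37 with the implied and the transcript length trend removed. Tgtp1 had 27 and 21 reads and shares 81.8% of its words, mainly with Tgtp2. Iigp1, a GTPase that disrupts parasite vacuoles, had 4 and 13 reads, a CPM log2 ratio of 1.72 with a counting interval of 0.02 to 3.79.

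**Figure D4:**
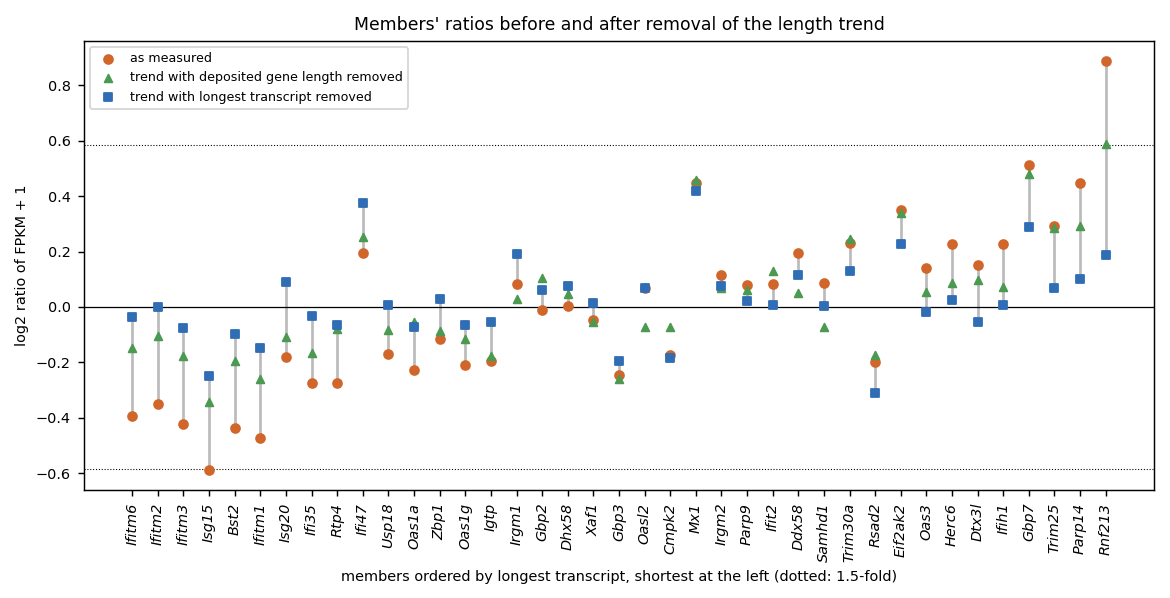
Log2 ratio of FPKM + 1 for the 39 members with an annotated transcript, ordered by the length of their longest transcript with the shortest at the left, as measured (orange circles), with the trend with implied gene length removed (green triangles) and with the trend with the longest transcript removed (blue squares), and dotted lines at 1.5-fold. The IFITM genes, Isg15 and Bst2 at the left and Rnf213 and Parp14 at the right move toward 0, while Mx1 stays between 0.42 and 0.46.

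The genes that bring the interferon signal to these members were examined by role. The 9 ligand genes listed, among them Ifnb1, Ifna4 and Ifng, had 0 reads in both libraries, which allows up to 0.182 CPM in CHBP- and 0.184 CPM in CHBP+ M-MDSC at 3 reads. All 6 receptor chains were expressed and 0 of 6 passed 1.5-fold. The type I receptor chain Ifnar1 was at 15.9 and 20.2 FPKM (log2 ratio 0.32, and 0.20 and 0.24 with the implied and the transcript length trend removed), and its partner Ifnar2 was at 22.2 and 20.5 FPKM. The type II chains Ifngr1 (50.5 and 48.7 FPKM) and Ifngr2 (57.6 and 52.1 FPKM) were the most abundant receptors.

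The counts by role below stand beside 5066 higher and 5882 lower of all 10948 genes kept, and each role holds few genes. Of 5 signal transducers 4 were higher in CHBP+ M-MDSC and 0 passed 1.5-fold. The kinases Jak1 (39.4 and 50.8 FPKM) and Jak2 (84.1 and 98.4 FPKM) had log2 ratios of 0.36 and 0.22, Tyk2 of 0.11 and Stat2 of 0.23. With the implied length trend removed these were 0.25, 0.24, 0.14 and 0.27 in that order, and with the transcript length trend removed 0.19, 0.04, -0.04 and 0.10. Irf9, the DNA-binding partner, was at 4.79 and 4.37 FPKM, with an interval that included 0. Of the 12 kept genes that sense nucleic acids or induce interferon 8 were higher and 0 passed 1.5-fold. Tlr7 (3.95 and 5.62 FPKM) and Tlr9 (1.06 and 1.80 FPKM) were the highest of these, at 0.42 and 0.44, and Irf3 (26.4 and 21.2 FPKM) the lowest, at -0.30. These were 0.26, 0.53 and -0.16 with the implied and 0.34, 0.40 and -0.16 with the transcript length trend removed. Irf7, itself an ISG, was at 1.23 and 1.06 FPKM with an interval that included 0. Of 5 negative regulators 4 were lower, 0 past 1.5-fold. Socs1, the feedback inhibitor of the Jak kinases, was at 9.60 and 7.20 FPKM, with a log2 ratio of -0.37 that was -0.15 and -0.10 with the implied and the transcript length trend removed. Ptpn6 (SHP-1) was at 69.6 and 61.3 FPKM, with a log2 ratio of -0.18 that was -0.16 and -0.08 after the same removals. The remaining gene, Pias1 was higher, at 13.5 and 15.3 FPKM.

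**Figure D5:**
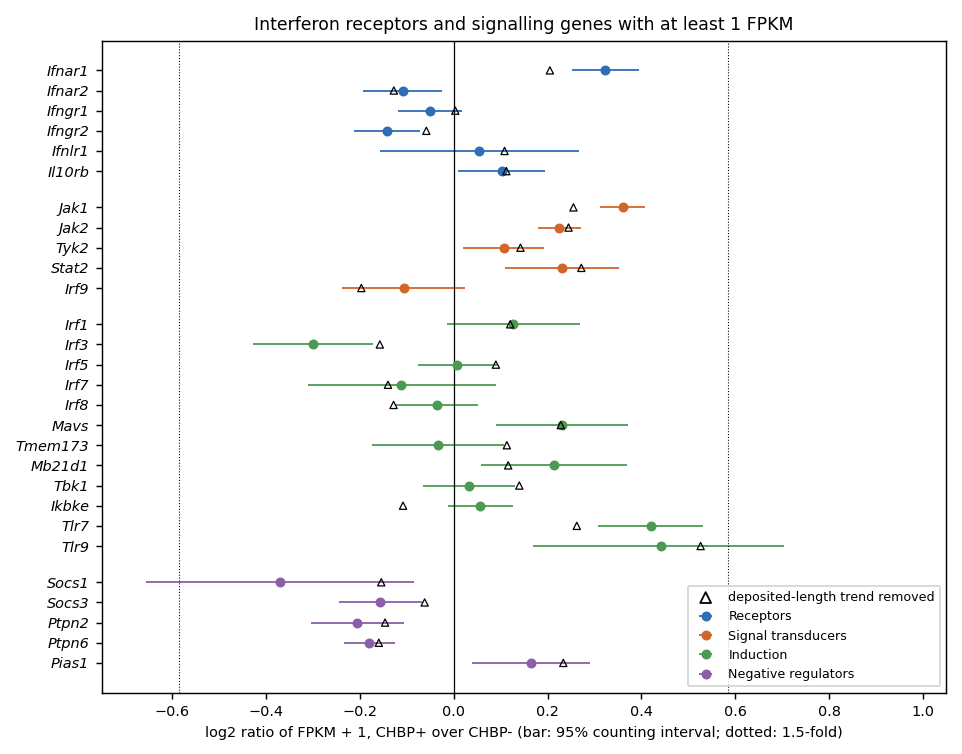
Log2 ratio of FPKM + 1, CHBP+ over CHBP- M-MDSC, for interferon receptors and signalling genes with at least 1 FPKM, coloured by role, with bars for the 95% counting interval, triangles for the value with the implied length trend removed and dotted lines at 1.5-fold. No point lies beyond the 1.5-fold lines, and the negative regulators other than Pias1 lie below 0.

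A further 38 interferon-inducible genes were listed, of which Ifi207 had no entry. Of the 27 with at least 1 FPKM, 15 were higher and 12 lower, beside 5066 and 5882 of all 10948 genes kept. Their median log2 ratio was 0.04, beside -0.03 over all genes kept. Past 1.5-fold, Slfn9 and Slfn3 were higher, where 3.42% of all kept genes were. Ly6e was lower, where 2.89% of all were. With so few genes, these counts are a description only.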

How the data were processed

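RNA of sorted M-MDSCs was sequenced as 1 library per condition. The authors deposited, per gene, the read count and the FPKM. Every gene with at least 50 reads in both libraries (10835) gave the same gene length from count and FPKM in both, within 0.1%, so FPKM held no other scaling between the libraries. That length was 1.55 times the longest GENCODE M1 transcript at the median over the members, and 3.43 times at most, so levels of genes with many transcripts may be understated. The methods name mm9, TopHat2, HT-seq and DESeq with single-end reads of 75 bases, while the submitters' processing notes name mm10/GRCm38, HISAT2 2.0.4, Cufflinks 2.1.1 and Cuffdiff. All 51 member entries overlapped the RefSeq GRCm38.p6 gene of that name. How strand and multi-mapping reads were treated is not given in the sources used here, which leaves overlapping genes and near-identical copies uncertain.

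No count model was fitted, because 1 library per condition leaves no spread to estimate. Log2 ratios used a pseudocount of 1 FPKM. Length trends were cubic polynomials in log10 length over all kept genes. Sequence sharing was the percentage of a gene's 75-base words found in other genes of GENCODE M1. All 50 members were named, and the pathway genes came from lists by role, of which 1 gene is not reported here. The members and lists were chosen with earlier results of these data known. As alternatives, the pseudocount was set to 0.1, the filter to 5 FPKM or none, and the fold to 2. Libraries were scaled by the median or by a trimmed mean of M values, CPM replaced FPKM, the implied length trend was removed, and overlapping genes were left out. The transcript length trend and leaving out members that share over 10% of their words were chosen after seeing the data. The tools were edgeR 4.0.16 for scaling factors only (R 4.3.3), and scipy 1.17.1, pandas 2.3.3, numpy 2.4.6 and matplotlib 3.10.9 (Python 3.11.15), with scripts tested on simulated data.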

Additional observations from a re-analysis of the deposited data

How the results depend on the processing

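No paired analysis was possible because there was 1 library per condition, and for the same reason no replicate could be left out. The 1 member at least 1.5-fold higher (Rnf213) became 2 with a pseudocount of 0.1 or with CPM + 1, and 0 with a fold of 2 or with the transcript length trend removed. The 1 member at least 1.5-fold lower (Isg15) became 0 with median centring, trimmed mean of M values, CPM + 1, the implied length trend removed, a fold of 2 or the transcript length trend removed. The members' median log2 ratio, 0.04 in the main setting, ran from -0.05 (overlapping genes left out) to 0.08 (members that share sequence left out). No interval of this median was computed. The counting bounds of single members had medians of -0.16 and 0.17, which describe 1 gene and not the median. Over all 10948 genes the split of those at least 1.5-fold higher against lower was 374 to 316, and 434 to 264 with median centring. It was 665 to 571 with a pseudocount of 0.1 and 609 to 395 with CPM + 1. With trimmed mean of M values it was 391 to 287. The split was 312 to 168 with the implied length trend removed, and 195 to 98 of 10211 genes with the transcript length trend removed. The sign of 4 members changed with the implied length trend removed, and of 8 of 39 with the transcript length trend removed, against 1 of 40 with either change of scaling. Gene length was the setting on which signs depended most among those tried for single members. Depth limits the 11 entries under 1 FPKM.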

Other observations

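The Schlafen genes, an interferon-inducible family that restrains cell growth and translation, did not differ in a shared direction. Slfn2 was at 281 FPKM in CHBP- and 240 FPKM in CHBP+ M-MDSC and Slfn1 at 118 and 102 FPKM, with log2 ratios of -0.23 and -0.21 that were both -0.04 with the implied length trend removed. Slfn4, which is abundant in myeloid cells, was level at 42.2 and 42.8 FPKM. Slfn9 was at 2.68 and 4.78 FPKM, Slfn3 at 4.44 and 7.24 FPKM and Slfn5 at 2.14 and 3.68 FPKM. Their log2 ratios of 0.65, 0.60 and 0.58 were 0.62, 0.77 and 0.57 with the implied length trend removed. They were 0.51, 0.77 and 0.48 with the transcript length trend removed. Slfn8 was at 3.34 and 4.23 FPKM. How reads were shared among these related genes is not known.

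Ly6e, a small GPI-anchored surface protein that is induced by interferon, was at 76.0 FPKM (15648 reads) in CHBP- and 38.8 FPKM (7879 reads) in CHBP+ M-MDSC. Its log2 ratio of -0.95 was -1.13 with the implied length trend removed and -0.85 with the transcript length trend removed. The length implied for Ly6e was 12485 bases, longer than its listed span of 4855 bases, as was so for 6.27% of all kept genes and for 0 of the 51 member entries, so its level per length is uncertain while the ratio of its reads does not depend on that length. Pml, the organiser of nuclear bodies, was at 2.82 and 1.74 FPKM, with a log2 ratio of -0.48 that was -0.71 and -0.68 with the 2 length trends removed. The interferon-induced chemokines Cxcl9 (6 and 0 reads) and Cxcl10 (32 and 21 reads) were scarce.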
